A study of Rattus norvegicus with 6 samples.

Results

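The circadian clock genes examined here are Arntl, Clock, Per1, Per2, Per3, Cry1, Cry2, Nr1d1, Nr1d2 and Dbp, taken as every non-control probe that the array file of Ta replicate 1 names after one of these 10 genes. They are covered by 16 probes on 25 spots, out of 34911 genes on the array. RNA came from rat bone marrow stromal cells (rBMSCs), the adherent cells of tibia marrow, after 7 days in culture. Of the 6 cultures, the 3 called Ta had a titanium surface modified with tantalum under them and the 3 called Ti simple titanium, with no other difference between the groups given in the labels. The treatment text of every sample, those titled Ti included, names the tantalum-modified surface, so the groups rest on the titles and the culture label. The labels do not give the rats' strain, sex or age, whether cultures shared an animal, or the hour of harvest, and they describe no step that sets the clocks of the cultures to a common phase.

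The mammalian clock is a feedback loop of transcription. ARNTL (also BMAL1) and CLOCK pair and switch on genes that carry E-box sequences, among them the Per and Cry genes, whose proteins return to the nucleus and block the pair. The same pair switches on Nr1d1 and Nr1d2, which encode REV-ERB repressors of Arntl, and Dbp, a D-box binding factor that passes the rhythm to output genes. Bone and marrow stromal cells keep such clocks in culture, and medium changes or serum can reset them.

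None of the 10 clock genes passed the test between surfaces, where 4.12% of the 19616 tested genes did. The test is limma's with Benjamini-Hochberg adjustment over all tested genes at a threshold of 0.05, on values on the log2 scale, with differences given as Ta minus Ti. The largest difference was that of Nr1d1 at 0.61 (1.53-fold, adjusted p = 0.0841), followed by Arntl at -0.38 and Dbp at 0.33. At an unadjusted p under 0.05 there were 4 members, Nr1d1, Dbp and Per1 with higher means on Ta and Cry2 with a lower mean, against 30% of all tested genes. The 3 Ta arrays lay wholly above or below the 3 Ti arrays in 5 members, against 35.8% of all tested genes, and the added member is Nr1d2. The median difference of the 10 members was 0.09, against 0.03 over all tested genes, and their median absolute difference was 0.18 against 0.20.

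The probes that carry the contrasts within genes are printed first, since what each one matches decides what its value counts. All have 60 bases and are given 5′ to 3′ from the array files, with positions in the build that the array header names, rn4. The Nr1d1 probe (chr10:87543165-87543519, minus strand) gave the largest difference among the 10 genes. The dimmer Per1 probe (chr10:55867840-55868424, plus strand) gave the largest among all 14 tested probes. The Clock probes (A at chr14:34254357-34254416 and B at chr14:34249295-34254359, both plus strand) overlap at their ends and differed in their values. The Nr1d1, Per1 and Clock B probes cover 355, 585 and 5065 bases of genome with 60 bases of sequence, so each match is split over the genome.
Nr1d1 probe: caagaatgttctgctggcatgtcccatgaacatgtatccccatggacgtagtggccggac
Per1 dimmer probe: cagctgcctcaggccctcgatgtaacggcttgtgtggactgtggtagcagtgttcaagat
Clock probe A: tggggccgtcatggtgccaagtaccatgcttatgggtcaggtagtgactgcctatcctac
Clock probe B: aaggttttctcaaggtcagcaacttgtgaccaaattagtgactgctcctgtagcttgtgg

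The scanner software put between 62.7% and 65.9% of an array's spots well above background, and it marked no spot as saturated. All 3 Ta arrays and Ti replicate 1 lay in 1 row of the slide and Ti replicates 2 and 3 in the other. All 8 stromal markers (Col1a1, Col1a2, Thy1, Eng, Nt5e, Pdgfra, Pdgfrb and Vim) and all 9 macrophage markers were well above background on all 6 arrays, while 4 of 5 B cell, T cell and erythroid markers were so on none and Cd79a on 1. The log2 summed signal of the stromal list ran from 17.3 to 17.5 in both groups. That of the macrophage list ran from 14.6 to 15.3 on Ta and from 15.3 to 15.5 on Ti. Its median difference over genes was -1.09, from -3.08 for C1qc to 0.34 for Cd14. Of the 9 genes 0 passed the threshold in limma, against 4.12% of all tested genes. At an unadjusted p under 0.05 there were 6, 5 lower on Ta and 1 (Cd14) higher, against 30% of all tested genes. The log2 summed signal of 3 endothelial markers ran from 6.93 to 7.46 on Ta and from 7.42 to 8.02 on Ti, that of 4 mast cell markers from 5.81 to 6.64 on Ta and from 7.89 to 8.16 on Ti, and that of 5 neutrophil markers from 8.06 to 9.29 on Ta and from 6.44 to 7.14 on Ti. On no array were the mast cell gene Ms4a2 or the neutrophil genes S100a9 and Elane well above background. Of the stromal markers 1 passed in limma, against 4.12% of all tested genes. It was Thy1 at 0.67 (limma adjusted p = 0.0439), and its second probe gave 0.36. Of the 3 mast cell markers tested, 2 passed in limma, against 4.12% of all tested genes. They were Kit (-2.56, limma adjusted p = 0.0488) and Cpa3 (-1.93, limma adjusted p = 0.0407). Cpa3 was well above background on 1 of the 3 Ta arrays and on all 3 Ti arrays. It met the filter through the Ti arrays, and its difference rests on Ta values near background. Fcer1a (-0.25, limma adjusted p = 0.685) did not pass, and its groups overlapped. Of the 3 neutrophil markers tested, 2 passed in limma, against the same 4.12%. They were S100a8 (2.95, limma adjusted p = 0.0447) and Camp (1.68, limma adjusted p = 0.0453). Mpo (1.66, limma adjusted p = 0.0517) did not pass. The part of these other cells in the clock gene values was not tested, and fewer cells of a type cannot be told apart from less RNA per cell.

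The positive arm of the loop comes first. Arntl, which encodes BMAL1, the partner of CLOCK, measured 9.84, 9.47 and 9.37 (log2) on Ta replicates 1 to 3 and 10.07, 9.71 and 10.05 on Ti replicates 1 to 3. Ta replicate 1 lay above Ti replicate 2, so the groups overlapped, and the other Ta arrays lay below every Ti array. The group means were 9.56 ± 0.25 (SD, n = 3) on Ta and 9.94 ± 0.20 on Ti, a difference of -0.38 ± 0.16 (SE) with a 95% confidence interval from -0.78 to 0.02 and an adjusted p of 0.179 in limma.

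Clock, the DNA-binding partner of BMAL1, was dim, and its probes gave no common picture. Probe A measured 5.09, 5.60 and 5.41 on Ta and 4.98, 5.44 and 5.15 on Ti, with a difference of 0.18 ± 0.18 (limma, adjusted p = 0.536). Probe B measured 5.05, 4.81 and 5.10 on Ta and 4.81, 4.44 and 5.47 on Ti, a difference of 0.08 ± 0.26 (limma over all probes, adjusted p = 0.855). In probe A replicate 2 was highest in each group, while in probe B it was lowest in each. The 95% confidence interval of probe A, from -0.25 to 0.60, leaves room for a difference of either sign. Without single arrays its difference ranged from 0.06 (without Ta replicate 2) to 0.32 (without Ta replicate 1).

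Among the repressors of the loop, Per1 and Cry2 had groups that did not overlap, in opposite directions. Per1, a partner of the CRY proteins and an acute target of glucocorticoid and cAMP signals, measured 9.95, 10.13 and 10.05 on Ta and 9.70, 9.88 and 9.64 on Ti with its brighter probe. Every Ta array lay above every Ti array, by at least 0.07. The difference was 0.31 ± 0.10 (1.24-fold, 95% confidence interval 0.07 to 0.55, limma adjusted p = 0.105).
The dimmer Per1 probe printed above measured 4.27, 4.62 and 4.81 on Ta and 3.77, 3.61 and 4.18 on Ti. It was well above background on all 3 Ta arrays and on 2 of the 3 Ti arrays, and the groups did not overlap. Its difference was 0.71 ± 0.20 (limma over all probes, adjusted p = 0.0840), a larger value than that of the brighter probe, with the same sign. None of the 14 clock gene probes tested passed in that fit, against 4.31% of 25774 probes.

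Cry2, which encodes a cryptochrome that blocks the CLOCK and BMAL1 pair, had close replicates. It measured 11.62, 11.53 and 11.59 on Ta and 11.71, 11.80 and 11.81 on Ti. Every Ti array lay above every Ta array, and the SD was 0.05 in each group. The difference was small at -0.19 ± 0.08 (1.14-fold, 95% confidence interval -0.38 to -0.01, limma adjusted p = 0.157).

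Per2, Per3 and Cry1 showed no separation of the surfaces. Per2, the period gene most often tied to the phase of the clock, ranged from 7.46 to 7.85 on Ta and from 7.57 to 7.66 on Ti, so the Ti arrays lay within the Ta range. Its difference was 0.01 ± 0.12 (limma adjusted p = 0.973), with a 95% confidence interval from -0.28 to 0.29, and its sign turned with median scaling (-0.03). Cry1, the other cryptochrome, ranged from 9.17 to 9.55 on Ta and from 9.18 to 9.53 on Ti, a difference of -0.04 ± 0.14 (limma adjusted p = 0.892).
Per3, a period gene that the loop can run without, had 3 probes, and 2 of them stayed near background on all 6 arrays. The third ranged from 5.80 to 6.28 on Ta and from 5.98 to 6.35 on Ti. The difference was -0.15 ± 0.17 (limma adjusted p = 0.574), and 0.01 with normexp background correction. Without single arrays it ranged from -0.30 (without Ta replicate 3) to -0.04 (without Ti replicate 1).

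Both REV-ERB genes had higher means on Ta without passing the test. Nr1d1, which encodes REV-ERB alpha, measured 6.41, 6.91 and 6.98 on Ta and 6.29, 6.16 and 6.01 on Ti. All Ta arrays lay above all Ti arrays, but Ta replicate 1 by only 0.11, and the Ta spread (SD 0.31) was over that of Ti (SD 0.14). The difference was 0.61 ± 0.17, with a 95% confidence interval from 0.19 to 1.03 and a limma adjusted p of 0.0841. By p it stood at place 2740 of the 19616 tested genes. Without Ta replicate 1 it was 0.79 (limma adjusted p = 0.0156), in a fit where 16.4% of all genes passed.

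Nr1d2, which encodes REV-ERB beta, measured 10.97, 11.14 and 10.98 on Ta and 10.88, 10.89 and 10.83 on Ti with its brighter probe. The groups did not overlap, with Ta replicate 2 highest and the 3 Ti arrays within 0.06 of each other. The difference was 0.17 ± 0.08 (limma adjusted p = 0.241). Its dimmer probe measured 5.90, 5.73 and 5.55 on Ta and 5.02, 5.69 and 4.62 on Ti. Here Ti replicate 2 lay within the Ta range, and the difference of 0.62 ± 0.27 (limma over all probes, adjusted p = 0.194) had the same sign as that of the brighter probe and a larger size.

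Dbp, the output factor, has 2 probes, of which 1 was printed on 10 spots of each array. The SD between these spots within an array was between 0.06 and 0.07 on the log2 scale. Their mean was 11.66, 11.45 and 11.60 on Ta and 11.33, 11.29 and 11.09 on Ti, so every Ta array lay above every Ti array by at least 0.12. The difference was 0.33 ± 0.10 (1.26-fold, 95% confidence interval 0.08 to 0.58, limma adjusted p = 0.0986). The second Dbp probe measured 11.64, 11.38 and 11.46 on Ta and 10.998, 11.27 and 10.92 on Ti, also without overlap. Its difference was 0.43 ± 0.13 (limma over all probes, adjusted p = 0.0908).

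**Figure D1:**
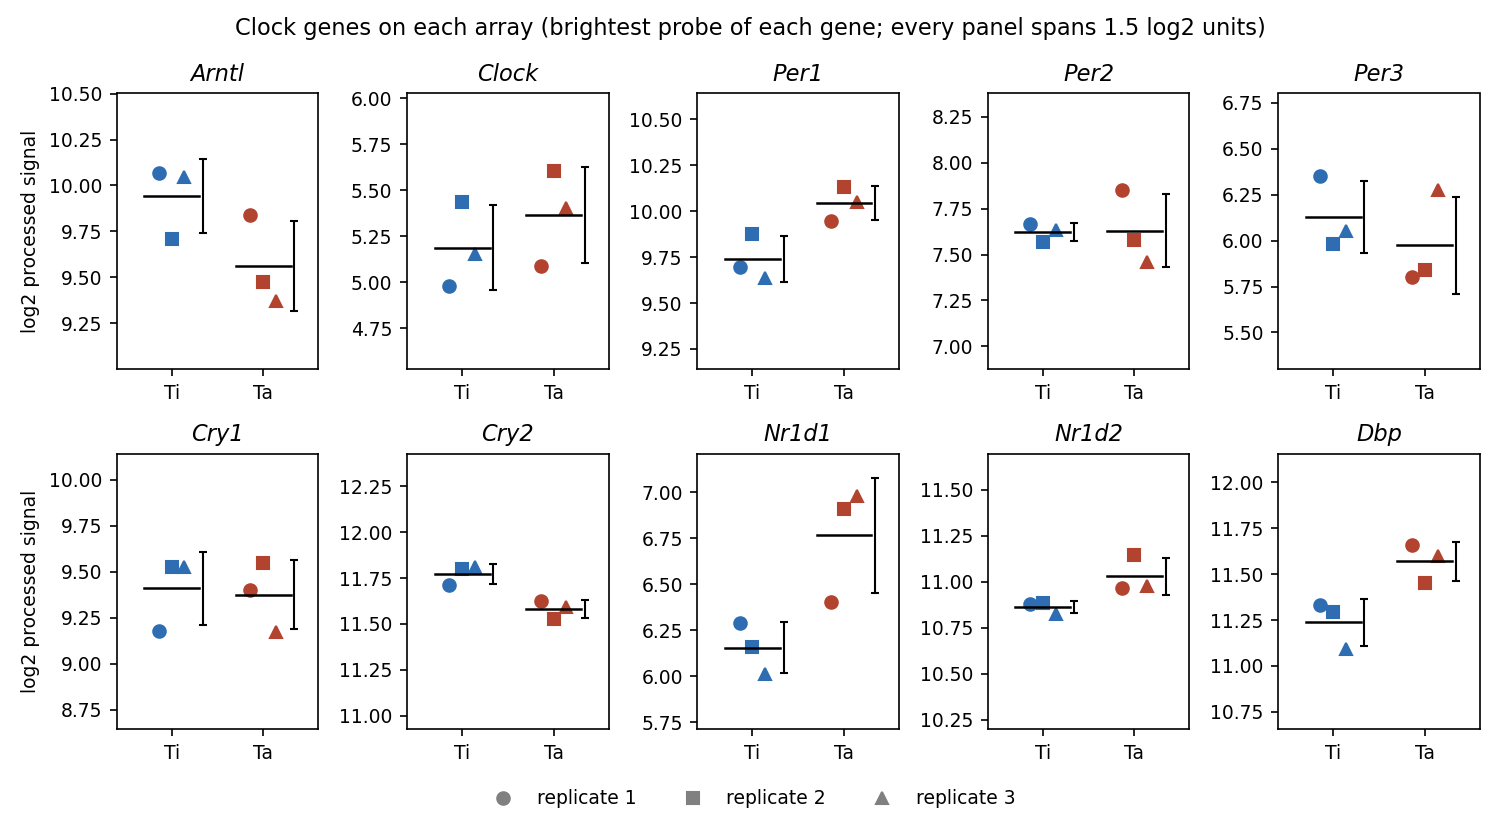
Log2 processed signal of the brightest probe of each clock gene on each of the 6 arrays, with symbols for replicates, a line for the group mean and a bar for 1 SD (n = 3). Per1, Nr1d1, Nr1d2 and Dbp have all Ta points above all Ti points, Cry2 has them below, and the other 5 overlap. Levels cannot be compared between panels, since each is a different probe.

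**Figure D2:**
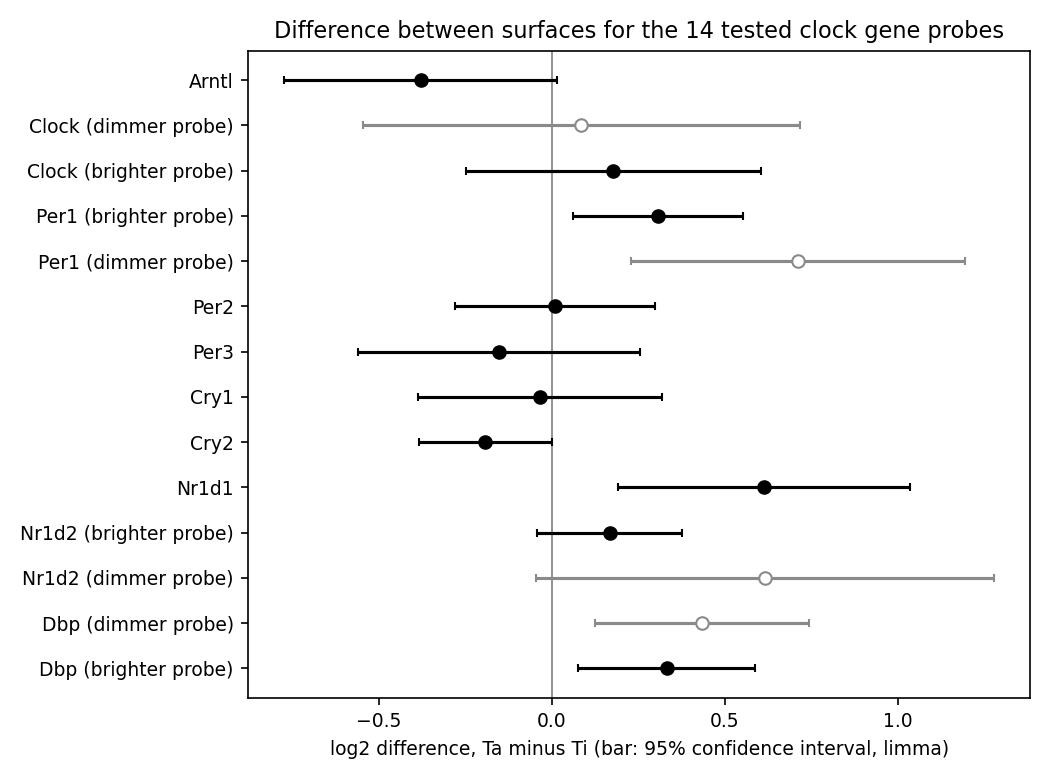
Log2 difference between Ta and Ti for the 14 tested probes of the clock genes, with 95% confidence intervals from limma over all tested probes. Filled points are the brightest probe of a gene and open points the others. The 2 probes of Per1 (0.31 and 0.71), of Nr1d2 (0.17 and 0.62) and of Dbp (0.33 and 0.43) lie on the same side of 0.

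The array pattern of Arntl and Dbp was set against the 13444 tested genes that have a proper symbol. Over the 6 arrays, Vwa5a, Spred1, Tfec, Selplg and Thnsl1 had the highest Pearson correlations with Arntl, from 0.994 to 0.997, and 1183 genes had one above 0.9. Pmel, Tti1, Smarcd2, Nos1 and Cyp27a1 were nearest to Dbp, from 0.982 to 0.991, with 182 genes above 0.9. These are descriptions over 6 points that share the split into 2 surfaces.

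RefSeq promoter windows (GRCr8, from 250 bases before to 50 bases after an annotated start) were found for 9 members, in 11 windows, and Cry1 had no entry. They are shown because the loop is known to act through short elements near the start. The only windows of Per1 (chr10:54304126-54304425) and Per3 (chr5:166777751-166778050) lie wholly within the annotated spans of these genes. For Per1 and Per3 the bases before the span were therefore not searched. Both strands were searched, and no motif below overlaps another in the stretches shown. The E-box CACGTG was found in 1 member, Nr1d1, and in 6.42% of all 33469 windows. The E-box variant CACGTT was found in Per2, Cry2 and Nr1d1 and in 4.83% of all windows. The D-box, searched as TTATGTAA and TTATGCAA, was found in Per2 and in 1.73% of windows. The core of the site bound by ROR and REV-ERB proteins, AGGTCA, was found in Arntl and Nr1d2 and in 16.2% of windows, and the core of the cAMP response element, TGACGT, in none of the members and in 7.94% of windows. Capitals mark the motif as read on the gene's strand in the 60 bases around it, or in 30 bases where that stretch reaches into the gene's annotated span, all upstream of the start the window belongs to.
Nr1d1 E-box (chr10:84229628-84229657, minus strand): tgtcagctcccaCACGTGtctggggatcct
Nr1d1 E-box variant at another start (chr10:84231954-84232013, minus strand): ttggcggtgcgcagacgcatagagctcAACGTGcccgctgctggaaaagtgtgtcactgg
Per2 D-box (chr9:99497152-99497211, minus strand): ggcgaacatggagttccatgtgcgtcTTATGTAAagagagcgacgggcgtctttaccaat
Per2 E-box variant (chr9:99497038-99497067, minus strand): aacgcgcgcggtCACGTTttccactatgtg
Cry2 E-box variant (chr3:98860617-98860676, minus strand): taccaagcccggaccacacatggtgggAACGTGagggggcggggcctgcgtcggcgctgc
Arntl ROR core (chr1:176766298-176766327, plus strand): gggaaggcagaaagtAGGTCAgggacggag

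None of the members that share the CACGTT variant passed the test, and a link between motifs and differences was not tested. Nr1d1 had the higher mean on Ta (0.61), Cry2 the lower (-0.19) and Per2 neither (0.01). Dbp and Per1, with higher means on Ta, had none of the searched motifs in their windows. The Per1 window belongs to a start inside the gene, so the bases before the gene's annotated span were not searched. A match is a description of letters in the window and not evidence of binding, and elements outside the windows were not searched.

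The other genes of the clock were examined as a list of 28 regulators and outputs. Of these, 23 were tested, and 0 passed, against the 4.12% of all tested genes given above. At an unadjusted p under 0.05 there were 7, 1 with a higher and 6 with a lower mean on Ta, against 30% of all tested genes, and the median difference was 0.07. The genes of the list that were not tested were well above background on no array by the scanner software's call.

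The regulators with the largest differences were Bhlhe41, Nfil3, Timeless and Rorb. Bhlhe41, which encodes the E-box repressor DEC2, measured 14.01, 13.47 and 13.16 on Ta and 14.28, 14.01 and 14.52 on Ti. Ta replicate 1 lay level with Ti replicate 2 and the other Ta arrays lay below every Ti array. The difference was -0.72 ± 0.24 (limma adjusted p = 0.112), but its second probe gave -0.10, so the gene is uncertain.

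Nfil3, which encodes a repressor that competes with DBP at D-boxes, measured 8.17, 8.07 and 7.73 on Ta and 8.49, 8.75 and 8.47 on Ti. The groups did not overlap, and the difference was -0.58 ± 0.14 (limma adjusted p = 0.0686). Timeless, known for its role in DNA replication beside its link to the clock, measured 7.98, 8.38 and 8.38 on Ta and 7.64, 7.81 and 7.68 on Ti. Its difference was 0.54 ± 0.13 (limma adjusted p = 0.0686). Rorb, which encodes an activator at the sites that REV-ERB proteins repress, measured 6.42, 6.64 and 6.02 on Ta and 6.76, 7.10 and 6.75 on Ti, without overlap. Its difference was -0.51 ± 0.19 (limma adjusted p = 0.131), a second probe gave -0.53, and the value was -0.23 with normexp background correction, -0.20 with array weights and -0.34 without Ta replicate 3. Of these regulators, Bhlhe41 (-0.95), Nfil3 (-0.67) and Timeless (0.67) passed without Ta replicate 1, where 16.4% of all genes did.

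Other regulators were picked after their values were seen, as relatives or partners of genes above. Bhlhe40, the paralog of Bhlhe41 that encodes DEC1, lay between 8.12 and 8.59 on Ta and between 8.80 and 8.82 on Ti, a difference of -0.46 ± 0.13 (limma adjusted p = 0.0822). Ncor1, the corepressor that REV-ERB proteins recruit, differed by -0.28 ± 0.07 (limma adjusted p = 0.0718), while its 4 other tested probes gave -0.06 to 0.35. The kinase genes Csnk1d and Csnk1e, whose products mark PER proteins for breakdown, differed by -0.19 ± 0.09 and 0.15 ± 0.09 (limma adjusted p = 0.210 and 0.333). A second Csnk1d probe gave 0.12, and 3 other tested Csnk1e probes gave 0.15 to 0.53.

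**Figure D3:**
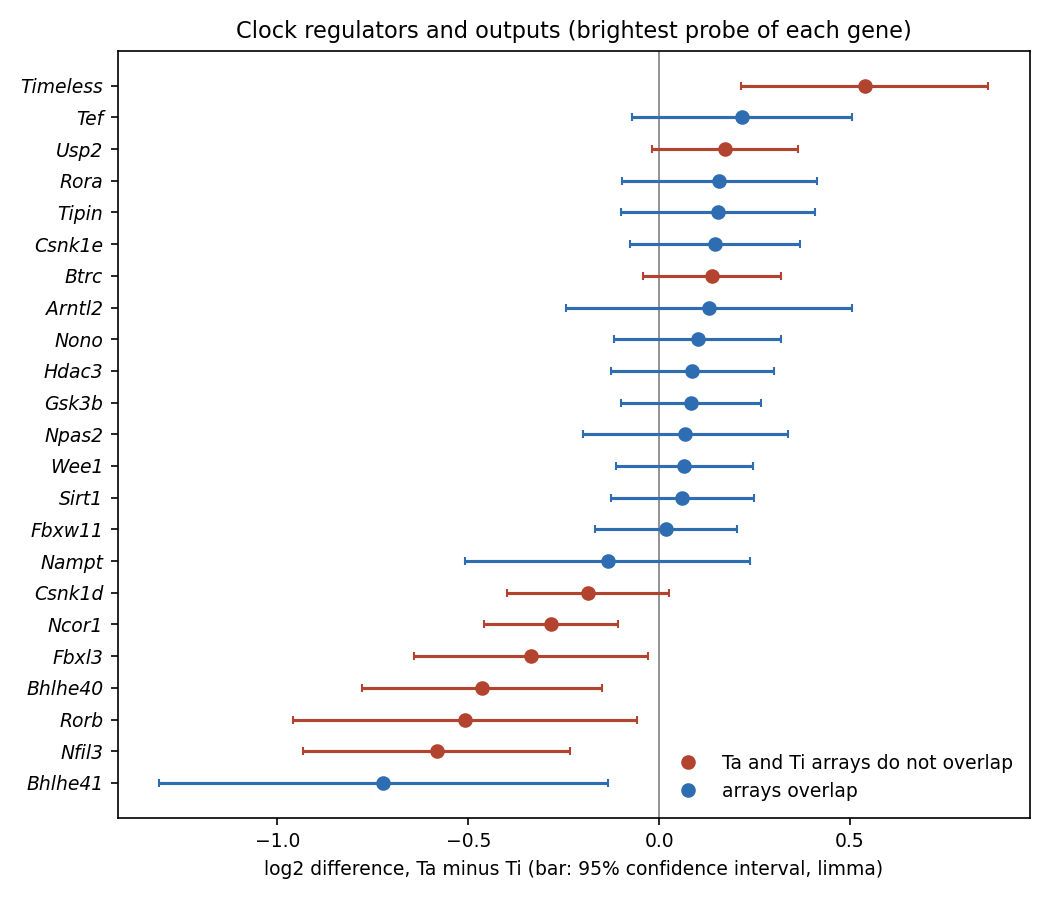
Log2 difference between Ta and Ti for the 23 tested clock regulators and outputs, with 95% confidence intervals from limma, coloured by whether the 3 Ta and 3 Ti arrays overlap. Bhlhe41 (-0.72), Nfil3 (-0.58) and Rorb (-0.51) lie lowest and Timeless (0.54) highest, and none passed an adjusted p of 0.05.

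Genes induced by, or otherwise linked to, signals that are known to reset the clock were examined beside the members. The glucocorticoid list includes Nr3c1, which encodes the receptor, so it does not hold induced genes only. Of 9 genes linked to glucocorticoids, 0 passed in limma, with 2 at an unadjusted p under 0.05, both lower on Ta, and a median difference of -0.21. Over all tested genes 4.12% passed and 30% had such an unadjusted p. Of 10 immediate early genes induced by serum or cAMP, 2 fell, 0 rose and 8 did not pass, against 4.12% of all tested genes that passed. At an unadjusted p under 0.05 there were 7, 1 higher and 6 lower on Ta, against 30% of all tested genes. Egr1 fell by 0.98 on the log2 scale (SE 0.17, limma adjusted p = 0.0453), with all Ta arrays between 9.66 and 10.23 and all Ti arrays between 10.71 and 10.97. Fosb fell by 1.16 (SE 0.15, limma adjusted p = 0.0396), with Ta arrays between 4.16 and 4.43 and Ti arrays between 5.26 and 5.77. The Fosb probe was dim, and its difference was -0.26 with normexp background correction. Neither call held when the second or the third Ta array, or the first or the third Ti array, was left out, where 0 of all tested genes passed in limma (3818 to 4474 at an unadjusted p under 0.05), and the differences were below 0 under all 18 alternatives. The median of this list was -0.73, with 8 genes below 0 and 2 above. Crem was higher on Ta by 0.53 (limma adjusted p = 0.0739) without overlap of the groups. Its 3 other tested probes gave 0.32 to 0.72. Per1, which the same signals induce, had the higher mean on Ta, while 8 of these 10 immediate early genes had the lower. A part of such signals in the Per1 values was not tested.

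The number of members past the threshold changed with how arrays were weighted. With limma's array weights (7.33 for Ta replicate 2 and 0.32 to 2.75 for the others), 7 of the 10 members passed (Arntl and Cry2 lower, Clock, Per1, Nr1d1, Nr1d2 and Dbp higher on Ta), where 51.9% of all tested genes did. With normexp background correction only Dbp passed (0.43, limma adjusted p = 0.0401), where 13.6% of all genes did.

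**Figure D4:**
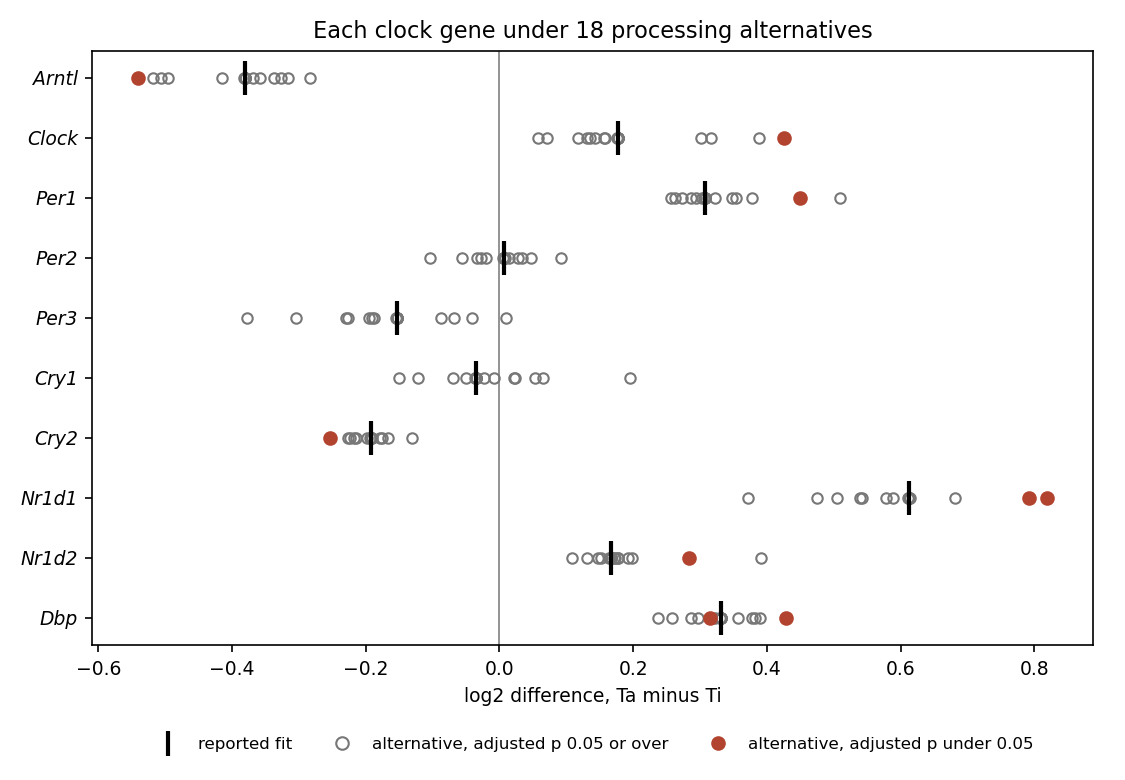
Log2 difference between Ta and Ti for each clock gene in the reported fit (bar) and under 18 processing alternatives (circles, filled where the limma adjusted p was under 0.05). Arntl, Clock, Per1, Cry2, Nr1d1, Nr1d2 and Dbp stay on 1 side of 0 in all of them, while Per2, Per3 and Cry1 cross it.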

How the data were processed

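RNA of 6 rat stromal cell cultures was hybridised to one-colour (Cy3) Agilent arrays. The deposited values are spot intensities. Per the file headers and the submitters' processing notes, Agilent Feature Extraction 12.0 subtracted background and detrended each array, with no scaling between arrays. The deposited value table equalled these intensities in 100% of values and was not used further.

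Log2 processed signals were reduced by each array's 75th percentile over 58717 non-control spots and the mean percentile was added back. Outlier spots were left out and spots of a probe averaged. Probes well above background on at least 3 of 6 arrays were kept, and the brightest probe represented a gene. Names came from a RefSeq table of GRCr8 for 30650 of 45598 probes and otherwise from the file of Ta replicate 1, since 93 spots of 2 other files carry other names. RefSeq calls Arntl Bmal1 and Arntl2 Bmal2. The listed name Chrono matched no probe.

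limma 3.58.1 in R 4.3.3 (lmFit, eBayes, two-sided) was fitted over 19616 genes, and separately over 25774 probes, and p-values were adjusted over all of them. SE is limma's moderated standard error. Per the design text each culture was an independent experiment, but nothing says whether they came from separate animals, so p-values measure the spread between these samples. On simulated data for this comparison (19616 genes, 200 changed) the test recovered 52% of changes of 1 and 92% of changes of 2 on the log2 scale, with 7 false calls among 151. Noise was drawn independently for each gene, and no change below 1 was simulated. In the data 30% of tested genes had an unadjusted p under 0.05 in limma, far more than the share changed in the simulation. The adjustment depends on that share, so the simulated recovery and false calls do not carry over to these data. The largest member difference was 0.61, so the simulation does not measure recovery of differences of that size. The number of arrays limits the precision.

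The members and lists were chosen with earlier results of these data known. The text names all members, listed genes past the threshold (at most 4 a list), the 4 regulators with the largest differences that did not pass, and the 5 genes most correlated with Arntl and with Dbp. Crem, Bhlhe40, Ncor1, Csnk1d and Csnk1e were named outside this rule, with their values known. Some markers were also named outside it, for their detection, as ends of a range or as tested genes that did not pass. Replicate numbers were not treated as pairs: deviations from group means correlated at 0.06, 0.13 and -0.18 for numbers 1, 2 and 3. No genome was used.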

Additional observations from a re-analysis of the deposited data

How the results depend on the processing

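The 10 clock genes gave 180 values under 18 alternatives: 160 kept their sign and their side of the threshold, 9 passed the test, 7 of them with array weights, and 11 changed sign. No member passed in the reported fit, and 1 did with normexp background correction, 7 with array weights and 0 to 1 without single arrays (Nr1d1 without Ta replicate 1). Of the clock regulators and outputs, 4 passed with normexp, 3 with a trended, robust eBayes, 12 with array weights and 0 to 5 without single arrays. Over all genes the 809 calls became 2660 with normexp, 2106 with a trended, robust eBayes and 10179 with array weights. They became 0 when dim probes were kept (5814 at an unadjusted p under 0.05 in limma), 0 with slide row as a factor (3837 unadjusted), where only Ti replicate 1 shares a row with Ta, and 0 to 3220 without single arrays. The replicate block left 8 calls over all genes and 0 among the members, and 3 of 6 arrays correlated best with the array of the other group that bears their number. Per2 turned to -0.0271 with median scaling, -0.0558 with array weights and -0.0337 with slide row, and ranged from -0.1035 to 0.0921 without single arrays. Cry1 turned to 0.0531 with array weights and 0.1955 with slide row, and ranged from -0.1505 to 0.0652 without single arrays, and Per3 turned to 0.01 with normexp. Without single arrays Clock ranged from 0.06 to 0.32, Per3 from -0.30 to -0.04 and Nr1d2 from 0.11 to 0.20. Fosb and Egr1 lost their calls under 7 of 18 alternatives each (Fosb -1.45 to -0.26, Egr1 -1.18 to -0.88), with dim probes kept, the replicate block, slide row and 4 of the 6 omissions of an array. The cause of these changes was not tested. Signal over background limits Per3, with 2 of its 3 probes well above it on no array, and the dimmer Per1 probe.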
